A study of Mus musculus with 20 samples.

Results

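Macrophages of the dorsal root ganglion were followed through 33 genes in a bulk RNA series, out of 55416 gene IDs counted. The members were given by name and chosen with earlier results of these data known. They divide into 19 genes of the resident macrophage class, read here as marks of tissue macrophages, and 14 genes of the general leukocyte class. Other myeloid and blood cells express the latter as well. The resident members Ly86 and Mpeg1 did not follow their class in all libraries below. Dorsal root ganglia house the cell bodies of sensory neurons next to the spinal cord, and macrophages lie around their neurons, satellite glia and vessels. Tissue macrophages depend on signalling through the CSF1 receptor and on the transcription factor PU.1, and they clear debris, secrete the complement protein C1q and read IgG through Fc receptors. After peripheral injury or inflammation, ganglion macrophages are known to multiply and to be joined by cells from the blood.

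The tissue was lumbar ganglia (L3 to L5) of adult C57Bl6 mice, sampled 1 month after tamoxifen. Prdm12, a transcription factor gene of pain-sensing neurons, was floxed in every animal. By their titles 5 animals were controls (P12 Fl/Fl TAM, which the labels give without a Cre) and 5 were inducible conditional knockouts (icKO), for which the characteristics name AdvCreERT2 and the series text Rosa26CreERT2. Advillin (Adv) drives expression mainly in sensory neurons, whereas Rosa26 is active in most cells, so the labels leave unsettled whether macrophages could recombine too. Each animal gave 1 library after formalin, an irritant used to cause inflammatory pain, and 1 noninjected library. For the site of injection, the time after formalin and the deleted part of Prdm12, nothing is given in the sources used here. The ganglia were whole tissue, so fewer cells of a type and less RNA per cell cannot be told apart in any value below.

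Of the 20 libraries 19 were used, with 11763893 to 22392635 counts, and the icKO 1 formalin library, with 2829 counts, was left out. Prdm12 was checked first, in CPM (counts scaled to a common library size by TMM, used for all levels below unless another scale is named). In Control 1 to Control 5 it was at 23.3, 99.1, 77.0, 38.9 and 95.9 CPM without injection, and at 28.4, 105, 92.0, 26.3 and 98.8 CPM with formalin. In icKO 1 to icKO 5 it was at 23.3, 74.5, 81.3, 22.2 and 23.2 CPM without injection, and in icKO 2 to icKO 5 with formalin at 73.3, 113, 15.7 and 14.5 CPM. Prdm12 thus went against the title in the libraries labelled Control 1, Control 4, icKO 2 and icKO 3. For these 4 animals the genotype word under which the counts were deposited also differs from the title. Animal totals of Prdm12 followed that word in every animal. They were 18.1 to 33.7 CPM in animals named icKO and 73.8 to 102 CPM in animals named control. Genotype was therefore compared mainly in the 6 animals whose records match (Control 2, Control 3, Control 5, icKO 1, icKO 4 and icKO 5). Each direction between genotypes is given for the animals and the record named with it, and need not hold in another grouping. With formalin these 6 animals leave 3 control libraries against 2 icKO libraries, both from males.

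Markers of other cells differed between these libraries. The icKO 4 and icKO 5 formalin libraries held the most neutrophil RNA, 3453 and 1577 CPM summed over 9 markers against 187 to 1296 CPM in the other 17 libraries, and the most erythroid RNA, 1346 and 1637 CPM over 6 markers against 123 to 735 CPM. The summed proliferation markers stood at 160.1 and 108 CPM against 17.002 to 88.9 CPM, and the monocyte markers at 198 and 204 CPM against 41.6 to 118 CPM. The icKO 5 formalin library also held 1644 CPM of skeletal muscle transcripts, where no other library passed 268 CPM, and 5695 CPM of fibroblast transcripts against at most 2819 CPM elsewhere. Its sensory neuron markers, at 4987 CPM, were the lowest of the 19 libraries. No marker list was at 0 in all libraries, and the part of these cells in the results below was not tested.

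All 33 members were detected, and the defining macrophage genes Csf1r, Adgre1 and Cx3cr1 had counts in every library. To compare genes with each other, counts were also divided by exon length (RPKM). On that scale the lysozyme gene Lyz2 was the most abundant member, with a mean of 192 RPKM over the 19 libraries. The next were C1qa and C1qb, which encode chains of C1q, at 41.2 and 39.6 RPKM, Tyrobp, the DAP12 adaptor of activating receptors, at 38.4 RPKM, Ly86, the MD-1 partner of CD180, at 30.7 RPKM, and the lysosomal protease gene Ctss at 29.1 RPKM. The CSF1 receptor gene Csf1r had 7.01 RPKM, the mannose receptor gene Mrc1 5.53 RPKM and Adgre1, which encodes F4/80, 4.83 RPKM. Among the genes best known from microglia, the purinergic receptor gene P2ry12 had 3.76 RPKM, Tmem119 2.81 RPKM and the lipid receptor gene Trem2 0.86 RPKM. The folate receptor gene Folr2 stood last at 0.14 RPKM (71 counts over all libraries). It failed the filter on low counts, so each test below covers 32 of the 33 members. Of 5 genes read as markers of the central nervous system, the oligodendrocyte genes Olig1 and Olig2 had means of 0.12 and 0.02 CPM and Sall1, a microglial transcription factor gene, 0.37 CPM. The astrocyte genes Slc1a2 and Aldh1l1 had means of 11.4 and 12.5 CPM, and the 5 genes summed to between 19.6 and 33.6 CPM, highest in icKO 5 formalin.

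The start sites of the members were read for the short DNA word bound by PU.1, the product of the member Spi1, because PU.1 and its partner Irf8 act on many macrophage genes. The 250 bases before the start were available for 25 members (14 resident, 11 general) from RefSeq on GRCm38.p6. The counts were made on GRCm39, so these windows serve for sequence alone. The 4 windows below show a single core in Cd53, repeated cores in Mrc1 and Itgam, and the longer form in C1qc. They run 5′ to 3′ on the gene's strand, and capitals mark GAGGAA or its reverse complement TTCCTC, in C1qc within the longer GAGGAAGT (reverse complement ACTTCCTC).
Cd53, chr3:106790150-106790399, minus strand: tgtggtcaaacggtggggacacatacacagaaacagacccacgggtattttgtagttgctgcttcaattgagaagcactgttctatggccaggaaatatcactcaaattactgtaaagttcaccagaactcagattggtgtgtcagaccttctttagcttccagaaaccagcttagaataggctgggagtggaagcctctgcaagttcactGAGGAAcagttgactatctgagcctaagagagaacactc
Mrc1, chr2:14229164-14229413, plus strand: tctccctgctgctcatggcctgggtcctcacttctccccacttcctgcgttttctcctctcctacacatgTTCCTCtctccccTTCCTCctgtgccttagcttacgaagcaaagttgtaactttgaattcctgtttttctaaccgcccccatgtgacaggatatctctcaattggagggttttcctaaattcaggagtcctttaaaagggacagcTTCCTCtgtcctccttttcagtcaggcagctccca
C1qc, chr4:136892915-136893164, minus strand: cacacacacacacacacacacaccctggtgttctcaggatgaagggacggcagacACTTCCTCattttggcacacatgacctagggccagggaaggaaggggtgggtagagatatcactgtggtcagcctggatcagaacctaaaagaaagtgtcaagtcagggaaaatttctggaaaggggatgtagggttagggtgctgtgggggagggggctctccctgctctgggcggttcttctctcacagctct
Itgam, chr7:128062390-128062639, plus strand: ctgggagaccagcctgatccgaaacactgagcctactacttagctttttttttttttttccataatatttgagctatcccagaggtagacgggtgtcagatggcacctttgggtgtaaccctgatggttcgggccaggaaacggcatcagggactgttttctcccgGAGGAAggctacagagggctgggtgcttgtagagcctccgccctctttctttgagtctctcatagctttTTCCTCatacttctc
The core of Cd53 lies 39 bases before the start, counted from the base of the core farthest from the start. The 3 cores of Mrc1 lie 180, 167 and 35 bases before the start, and the 2 of Itgam 84 and 15 bases before it. Searched on both strands, and with a gene counted once where it has several windows, GAGGAA occurred in 14 of the 25 members (56%; 7 of 14 resident, 7 of 11 general) and in 25.85% of all 27025 genes with windows of that length. The longer GAGGAAGT, which contains GAGGAA and so overlaps it, occurred in 1 member, C1qc, and in 2.79% of all genes. A word like the interferon-stimulated response element occurred in 2 members, Aif1 and Ctss, and in 3.46% of all genes. The TATA word TATAAA occurred in 5 members, all of the general class, and in 14.3% of all genes. A match to these letters was not tested for binding.

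The 19 libraries are shown gene by gene in the map of levels. Csf1r was at 30.9, 50.6, 52.0, 35.0 and 36.1 CPM in the noninjected libraries of Control 1 to Control 5 and at 29.2, 41.4, 34.5, 47.8 and 24.9 CPM in their formalin libraries. In icKO 1 to icKO 5 it was at 31.6, 42.9, 37.9, 33.01 and 40.2 CPM without injection, and in icKO 2 to icKO 5 at 50.7, 30.5, 41.2 and 78.4 CPM with formalin. The icKO 5 formalin library stood alone at the top, and the other formalin libraries labelled icKO lay within the range of those labelled control. Both sets follow the titles here and in the genes below, so each held libraries with low and with high Prdm12. Adgre1, in the same order, was at 12.3, 18.8, 24.7, 12.8 and 13.4 CPM and at 12.3, 15.4, 16.1, 16.9 and 8.604 CPM in the controls. In the icKO libraries Adgre1 was at 12.3, 15.2, 12.8, 9.74 and 15.3 CPM without injection and at 16.1, 11.7, 16.0 and 36.8 CPM with formalin. Its pattern was that of Csf1r, with icKO 5 formalin alone above Control 3 noninjected.

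**Figure D1:**
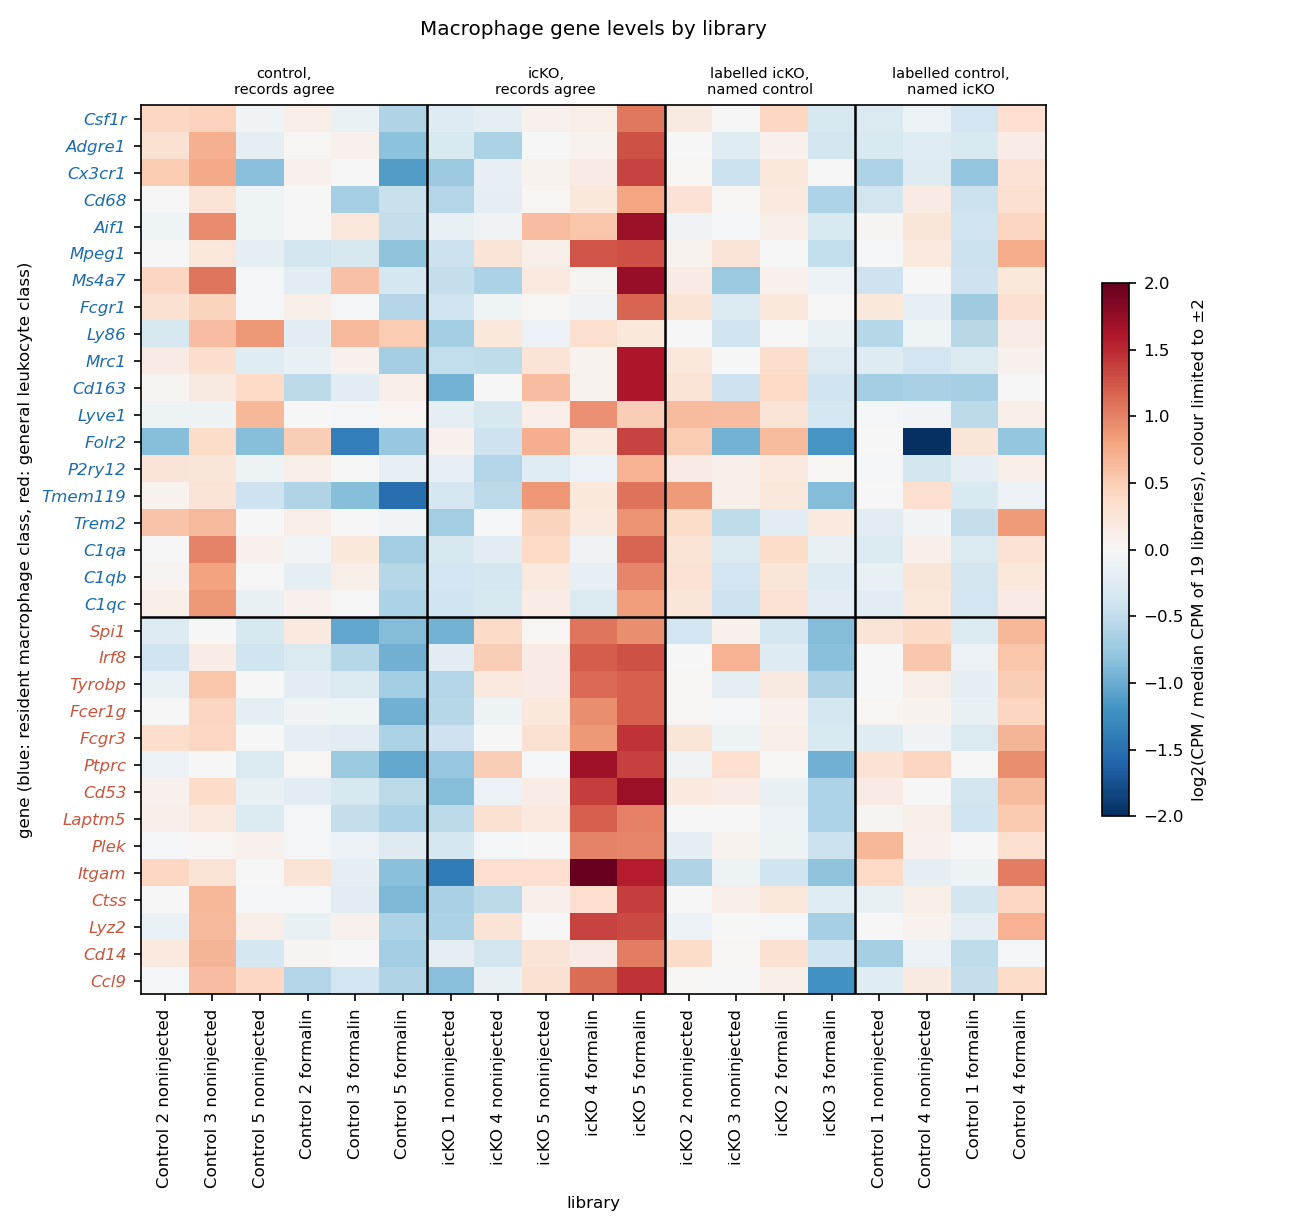
Levels of the 33 macrophage genes (rows) in the 19 libraries (columns), coloured by log2 of the CPM over the gene's median CPM, with the libraries grouped by whether title and deposited name give the same genotype. The icKO 5 formalin column is dark in both classes, whereas the icKO 4 formalin column is dark mainly in the general leukocyte class.

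The fractalkine receptor gene Cx3cr1, which sets tissue macrophages apart from many inflammatory monocytes, was at 6.36, 13.9, 16.5, 8.22 and 5.50 CPM in the noninjected controls and at 5.74, 10.4, 9.76, 11.97 and 4.54 CPM in the formalin controls. It was at 5.82, 10.1, 7.26, 8.74 and 10.3 CPM in the noninjected icKO libraries and at 11.3, 9.79, 10.9 and 24.9 CPM in the formalin ones. The icKO 5 formalin value lay above every other library, while icKO 4 formalin lay among the controls. C1qa was at 32.0, 38.5, 76.7, 41.2 and 41.1 CPM and at 31.6, 37.2, 44.7, 47.2 and 23.8 CPM in the controls, and at 30.8, 46.6, 31.6, 32.9 and 50.6 CPM and 49.5, 34.6, 36.8 and 86.1 CPM in the icKO libraries. Here icKO 5 formalin was followed closely by Control 3 noninjected.

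Mrc1, the gene of the mannose receptor CD206 carried by vessel-associated macrophages, was at 27.6, 37.0, 41.9, 25.2 and 27.9 CPM in the noninjected controls and at 27.1, 29.7, 35.1, 34.8 and 20.6 CPM in the formalin controls. It was at 23.5, 38.2, 32.96, 23.3 and 39.7 CPM in the noninjected icKO libraries and at 41.9, 27.5, 34.5 and 101 CPM in the formalin ones. The icKO 5 formalin value was 3.40 times the median of the other 17 libraries (leaving out icKO 4 formalin), and that of icKO 4 formalin was 1.16 times. Lyve1, which encodes a hyaluronan receptor of the same macrophage subset and of lymphatic endothelium, was at 5.06, 4.81, 4.81, 4.93 and 8.19 CPM and at 3.57, 5.14, 5.01, 5.62 and 5.27 CPM in the controls. In the icKO libraries Lyve1 was at 4.55, 7.97, 7.90, 4.12 and 5.63 CPM without injection and at 6.16, 4.03, 9.65 and 7.25 CPM with formalin. Lyve1 was the 1 resident member with its highest value in icKO 4 formalin, and its icKO 5 formalin value lay inside the range of the noninjected libraries.

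For the general leukocyte class the order changed. Ptprc, the pan-leukocyte CD45 gene, was at 27.8, 21.2, 22.8, 31.0 and 18.8 CPM in the noninjected controls and at 22.9, 23.5, 13.6, 43.7 and 11.2 CPM in the formalin controls. It was at 13.6, 21.7, 28.9, 32.1 and 22.4 CPM in the noninjected icKO libraries and at 23.3, 11.8, 73.8 and 59.1 CPM in the formalin ones. Both icKO 4 and icKO 5 formalin lay above the next library, Control 4 formalin, an animal whose deposited name says icKO. Lyz2, abundant in macrophages and neutrophils, was at 216, 198, 342, 228 and 237 CPM and at 190.4, 195, 231, 351 and 141 CPM in the controls. In the icKO libraries Lyz2 was at 139.9, 201, 217, 263 and 219 CPM without injection and at 214, 138, 553 and 539 CPM with formalin. The same 2 libraries were at the top, and the next for Lyz2 were Control 4 formalin and Control 3 noninjected.

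Over all members, 24 of 33 had their highest value in the icKO 5 formalin library (16 resident, 8 general) and 7 had it in the icKO 4 formalin library (1 resident, 6 general). For comparison, 19.3% of all genes tested were highest in icKO 5 formalin and 6.78% in icKO 4 formalin. The remaining members were C1qc, highest in Control 3 noninjected, and Ly86, highest in Control 5 noninjected. The 2 formalin icKO libraries were the top 2 for 13 members, of which 12 were general and 1, the perforin-2 gene Mpeg1, was resident. The 2 general members outside that set were Ctss and Cd14. At the low end, 18 members were lowest in Control 5 formalin, beside 6.05% of all genes. No member was lowest in icKO 5 formalin, where 19.9% of all genes were lowest.

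The icKO 4 and icKO 5 formalin libraries were also compared class by class. Against the median of the other 17 libraries, the general members had a median ratio of 2.26 in icKO 4 and 2.54 in icKO 5. The resident members had a median ratio of 1.16 in icKO 4 and 2.24 in icKO 5, where the median over all genes tested was 1.00 in both. In icKO 4, 2 of 19 resident and 12 of 14 general members lay above all other 17 libraries (10.3% of all genes tested did). In icKO 5, 16 of 19 resident and all 14 general members did (21.98% of all genes tested). The C1q chain genes were at 0.96, 0.89 and 0.81 times the median in icKO 4 (C1qa, C1qb and C1qc) and at 2.24, 1.97 and 1.79 times in icKO 5. The integrin gene Itgam (CD11b), shared with neutrophils and monocytes, was at 4.48 times the median in icKO 4 and 3.19 times in icKO 5. These ratios describe single libraries and carry no test.

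**Figure D2:**
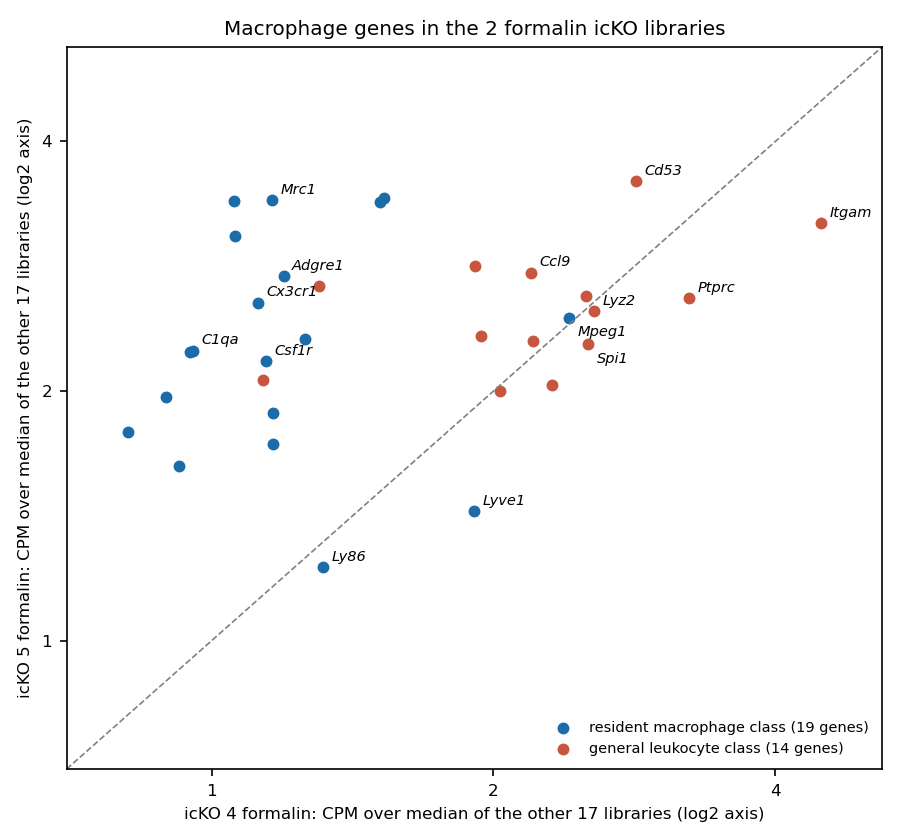
Each point is one of the 33 genes, placed by its CPM over the median of the other 17 libraries in icKO 4 formalin (horizontal) and icKO 5 formalin (vertical), both axes on a log2 scale with the dashed line of equal ratios. Resident macrophage genes gather near 1 on the horizontal axis (median 1.16) and near 2 on the vertical one (median 2.24), and most general leukocyte genes exceed 2 on both.

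Summed over a class, the resident members ran from 298 to 634 CPM in the other 17 libraries, with 485 CPM in icKO 4 formalin and 818 CPM in icKO 5 formalin. The general members ran from 266 to 655 CPM, with 993 and 1040.1 CPM. In icKO 4 the resident sum thus lay inside the range of the other libraries and the general sum outside it. In icKO 5 both lay outside.

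**Figure D3:**
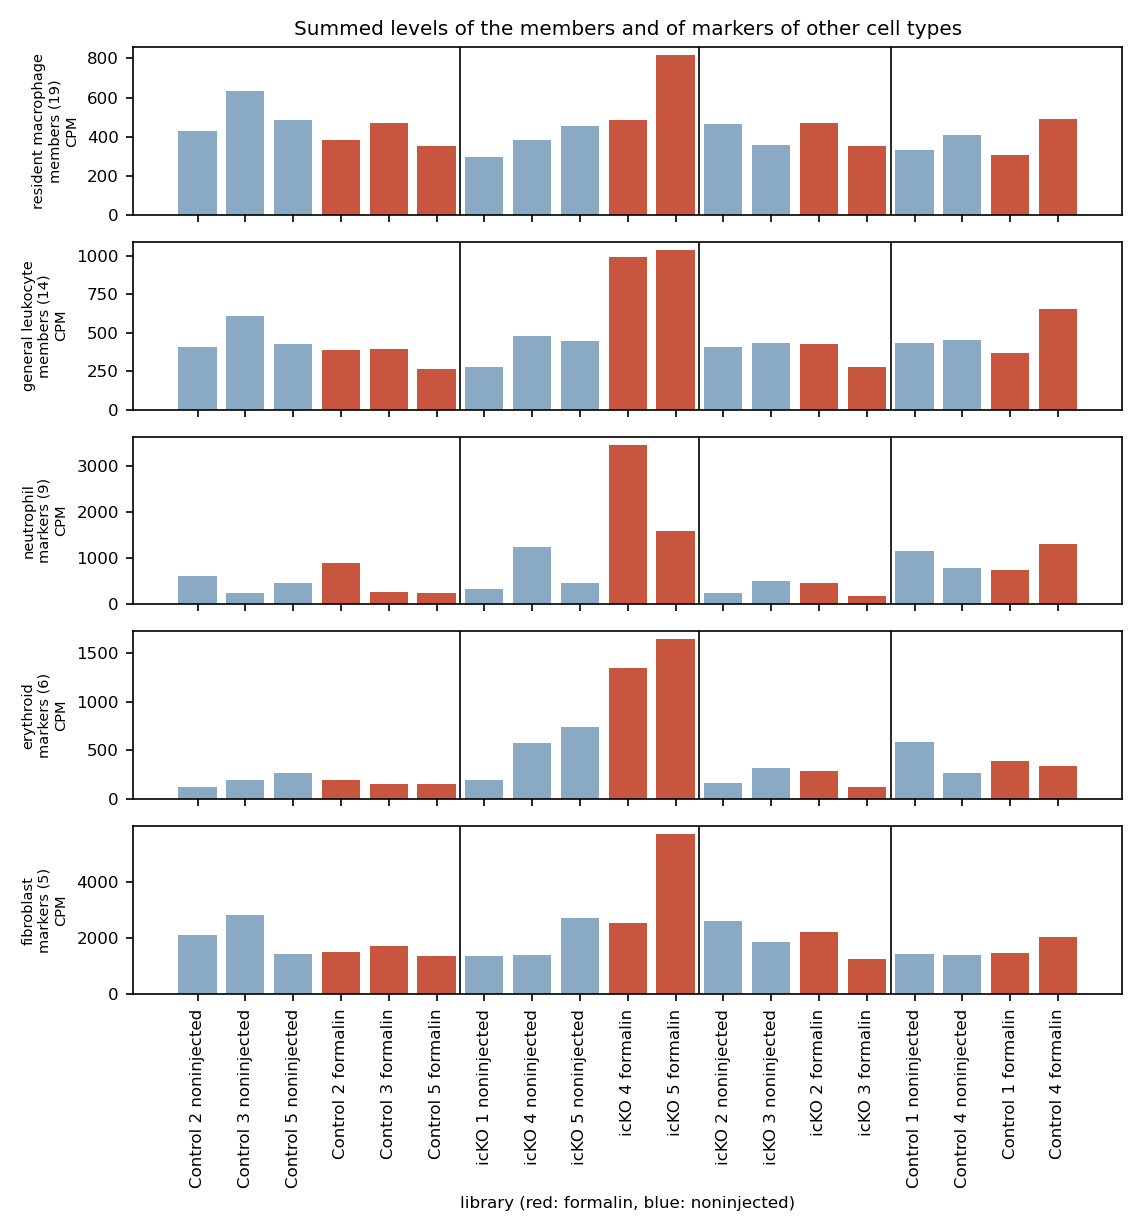
Summed CPM (bars, from 0) of the 19 resident and 14 general members and of neutrophil, erythroid and fibroblast markers in the 19 libraries, formalin libraries in red and noninjected ones in blue. The neutrophil sum peaks at 3453 CPM in icKO 4 formalin, and the resident sum (818 CPM) and fibroblast sum (5695 CPM) peak in icKO 5 formalin.

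The first comparison asked how the loss of Prdm12 bears on these genes in formalin-treated animals, with 2 icKO against 3 control libraries of the 6 animals with matching records. Higher in icKO were 12 of the 32 members tested, and none were lower (edgeR quasi-likelihood test with Benjamini-Hochberg adjustment over all genes, threshold 0.05). Of all 17669 genes tested, 6.33% were called higher. The members were chosen with earlier results of these data known, so this share gives scale and is no test of the set. The 12 comprised 11 of the 14 general members and 1 of the 18 resident members tested. The median log2 fold was 1.47 in the general class and 0.88 in the resident class, where the median over all genes was 0.00.

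Plek, which encodes the platelet and leukocyte signalling protein pleckstrin, was at 20.7, 19.7 and 17.9 CPM in Control 2, Control 3 and Control 5 and at 42.7 and 42.0 CPM in icKO 4 and icKO 5. Its log2 fold was 1.09 ± 0.12 (SE), with an adjusted p of 0.0011 (edgeR quasi-likelihood F test, Benjamini-Hochberg). The groups did not overlap, and the spread within each was small beside the difference. Mpeg1, whose product perforin-2 forms pores in engulfed bacteria, was at 24.4, 25.2 and 18.01 CPM against 75.9 and 77.3 CPM. Its log2 fold was 1.72 ± 0.19 (edgeR adjusted p = 0.0012), and it was the resident member that passed. In icKO 4 formalin Mpeg1 was at 2.41 times the median of the other 17 libraries. The resident median ratio there was 1.16 and the general one 2.26. The tetraspanin gene Cd53 was at 10.7, 10.02 and 8.67 CPM against 32.7 and 41.2 CPM, a log2 fold of 1.84 ± 0.23 (edgeR adjusted p = 0.0019).

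The chemokine gene Ccl9 was at 3.96, 4.58 and 3.94 CPM against 12.9 and 16.3 CPM, with a log2 fold of 1.64 ± 0.22 (edgeR adjusted p = 0.0023). Irf8, the partner of PU.1 in monocyte and macrophage development, was at 7.28, 5.96 and 4.54 CPM against 20.6 and 21.4 CPM, with a log2 fold of 1.79 ± 0.25 (edgeR adjusted p = 0.0024). In both genes the icKO libraries lay clear of the controls. The low-affinity IgG receptor gene Fcgr3 was at 15.1, 14.7 and 11.1 CPM against 31.5 and 46.7 CPM, with a log2 fold of 1.51 ± 0.24 (edgeR adjusted p = 0.0045). Tyrobp was at 19.6, 18.7 and 14.1 CPM against 50.6 and 52.7 CPM, with a log2 fold of 1.45 ± 0.23 (edgeR adjusted p = 0.0047). The lysosomal membrane gene Laptm5 was at 19.4, 14.3 and 12.9 CPM against 45.7 and 40.2 CPM, with a log2 fold of 1.46 ± 0.25 (edgeR adjusted p = 0.0066). For these 3 signalling and lysosomal genes, too, the lower icKO library exceeded the highest control.

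The other 4 that passed were Lyz2, Ptprc, Itgam and Fcer1g, the gene of the Fc receptor gamma chain, with log2 folds of 1.38, 2.07, 2.00 and 1.36. The 3 general members that did not pass were Spi1, Ctss and Cd14. Of the 17 resident members that did not pass, 16 had a positive log2 fold and Ly86 a negative one, -0.34. Their spread between the 2 icKO libraries was wide. Csf1r, at 41.2 and 78.4 CPM in icKO against 24.9 to 41.4 CPM in the controls, and Mrc1, at 34.5 and 101 CPM against 20.6 to 35.1 CPM, overlapped with the controls through icKO 4.

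Each count rests on the 2 icKO libraries, and leaving out either leaves 1 whose spread is assumed to be like that of the other groups. Without icKO 5 formalin, 8 members passed (1 resident, 7 general; 4.46% of all genes called higher), with a median log2 fold of 0.21 in the resident and 1.45 in the general class. Without icKO 4 formalin, 19 passed (10 resident, 9 general; 9.91% of all genes), with medians of 1.30 and 1.58. Csf1r, Mrc1, Cd163, Tmem119 and P2ry12 were among the resident members called in that fit, which has icKO 5 as its lone formalin icKO library.

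With all 10 animals grouped by the word in the deposited name, the 4 formalin libraries named icKO were set against 5 named control. Here 8 members were higher in icKO (3.05% of all genes), namely Mpeg1 and 7 general members, with a median log2 fold of 0.60 over all members. Ly86 was lower, by a log2 fold of -0.40 (0.905% of all genes called lower). Without the icKO 4 and icKO 5 formalin libraries, 0 members passed by edgeR in this grouping. At an unadjusted p under 0.05 there were 5 members, beside 1808 of all 18148 genes tested. The resident median was then -0.03 and the general median 0.42.

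**Figure D4:**
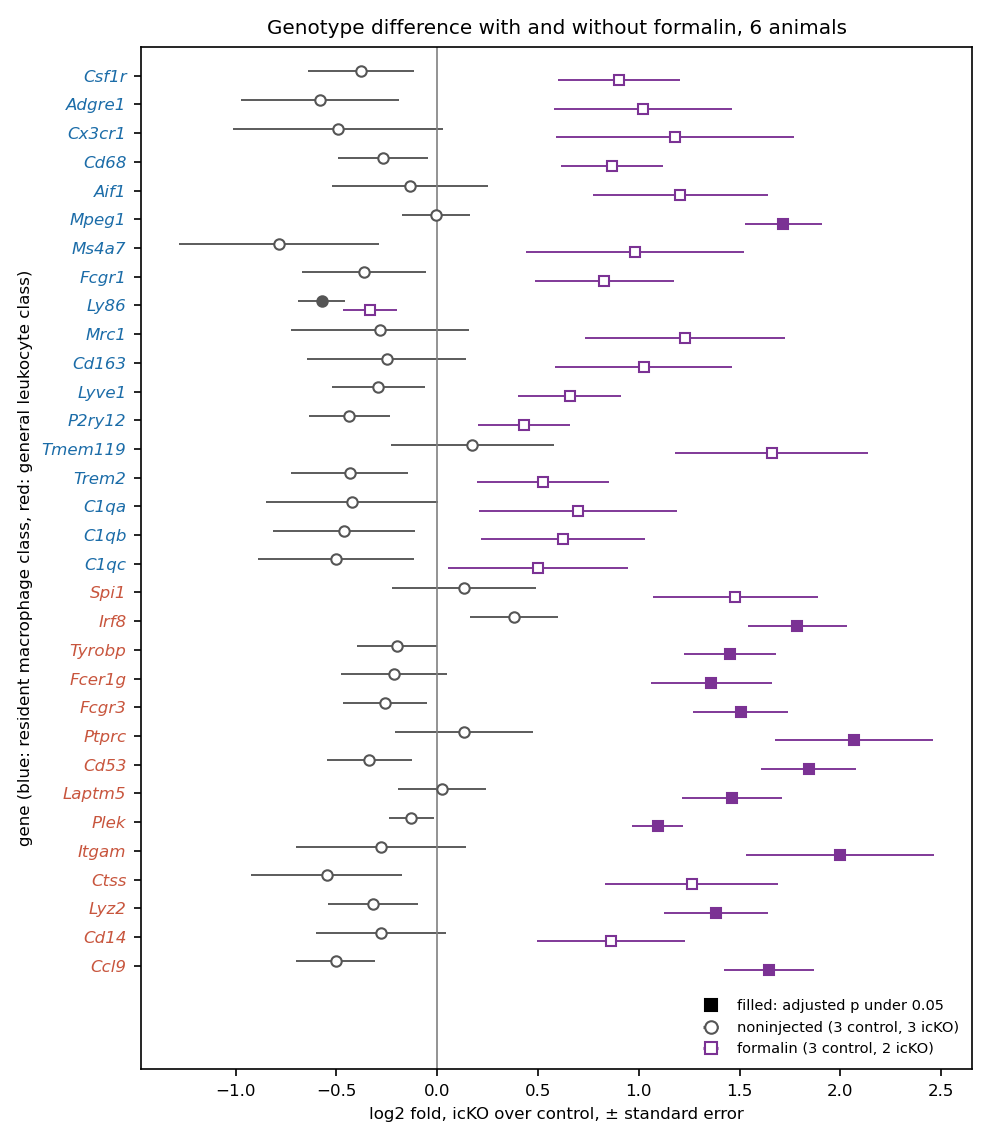
Log2 fold of icKO over control (horizontal, ± standard error) for the 32 genes tested, in noninjected libraries (circles, 3 control and 3 icKO) and formalin libraries (squares, 3 control and 2 icKO) of the 6 animals with matching records. Filled squares mark the 12 genes called with formalin, 11 of them in the general leukocyte class, and the filled circle marks Ly86, lower in noninjected icKO.

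Without injection, the same 6 animals gave 3 icKO against 3 control libraries, and 1 of the 32 members passed, Ly86, which was lower in icKO (0.877% of all genes called lower). Ly86 was at 84.4, 161 and 191 CPM in Control 2, Control 3 and Control 5 and at 65.2, 122 and 96.6 CPM in icKO 1, icKO 4 and icKO 5. Its log2 fold was -0.57 ± 0.12 (edgeR quasi-likelihood test, Benjamini-Hochberg adjusted p = 0.024). The groups overlapped, but within each sex icKO was lower, Control 2 and icKO 1 being the females, and without the sex term the call was lost. The remaining members did not pass, with 17 of 18 resident and 10 of 14 general log2 folds below 0 and class medians of -0.40 and -0.24. Grouped by deposited name, Ly86 was again the member called, with a log2 fold of -0.57 (edgeR adjusted p = 0.0019; 3.53% of all genes called lower). Leaving out any of Control 2, Control 3, Control 5 or icKO 1 ended the call in the main comparison. Ly86 also went apart from its class with formalin, at 149 CPM in Control 5 formalin, the lowest library for 10 resident members.

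Whether the genotype difference itself depended on formalin was tested as an interaction, and 6 members passed, all with a larger icKO over control fold with formalin than without (0.232% of all genes called in that direction). They were Cd53 with a log2 difference of 2.18 ± 0.31, Ccl9 with 2.15 ± 0.30, Fcgr3 with 1.76 ± 0.31, Mpeg1 with 1.72 ± 0.25, Tyrobp with 1.65 ± 0.30 and Plek with 1.22 ± 0.17. Their adjusted p ran from 0.036 to 0.049 by the edgeR quasi-likelihood F test (Benjamini-Hochberg). All 32 log2 differences were above 0, with a median of 1.68 in the general and 1.23 in the resident class against 0.01 over all genes. Ccl9 shows how the values lay. It was at 5.88, 9.12 and 7.94 CPM in the noninjected and 3.96, 4.58 and 3.94 CPM in the formalin controls, but at 3.35, 5.38 and 7.36 CPM in the noninjected and 12.9 and 16.3 CPM in the formalin icKO libraries.

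With the animal as a block, 23 members passed the interaction test (4.45% of all genes called higher). Without icKO 5 formalin 4 passed (0.397% of all genes) and without icKO 4 formalin 20 (9.16%). Leaving out Control 3, Control 5 or icKO 1 brought the count to 0. Grouped by deposited name, 0 passed (0% of all genes), and the median log2 difference was 0.93. In that grouping 20 members had an unadjusted p under 0.05, beside 4195 of all 17671 genes tested.

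Formalin was then compared with no injection inside each genotype. These comparisons share libraries with the genotype comparisons above, so their values are given side by side and not as further support. In icKO 9 members were higher with formalin (edgeR; 1.41% of all genes called higher), and all 32 log2 folds were above 0 with a median of 1.05. The 9 were Plek (1.05 ± 0.12), Cd53 (1.70 ± 0.23), Mpeg1 (1.21 ± 0.19), Ccl9 (1.29 ± 0.22), Fcgr3 (1.15 ± 0.23), Tyrobp (1.11 ± 0.22), Lyz2 (1.28 ± 0.25), Irf8 (1.02 ± 0.23) and Laptm5 (1.06 ± 0.24), as log2 folds with SE. Their adjusted p by edgeR ran from 0.019 to 0.046. Mpeg1 again was the resident member among them.

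The count moved with the libraries and the fit. With the animal as a block 20 passed (4.67% of all genes called higher), 8 of them resident. Without icKO 5 formalin 2 passed, Plek and Cd53 (0.733% of all genes), and without icKO 4 formalin 18 (10.6%). A fit of the icKO libraries alone gave 0, as did leaving out Control 2 or Control 3, which share the estimate of spread, and leaving out icKO 1 gave 2. By deposited name 0 passed (0% of all genes), and the median log2 fold was 0.58. In that grouping 18 members had an unadjusted p under 0.05, beside 4147 of all 17671 genes tested.

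In the controls with matching records the direction was the other way for every member, but 0 members passed by edgeR and by DESeq2 (0% of all genes by edgeR). All 32 log2 folds of formalin over noninjected were below 0, with a median of -0.43 against -0.01 over all genes. At an unadjusted p under 0.05 there were 5 members, beside 733 of all 17669 genes tested. The smallest p belonged to Ccl9, with a log2 fold of -0.86 ± 0.20 (edgeR adjusted p = 0.98), followed by Mpeg1 with -0.51 ± 0.17 and Fcgr3 with -0.61 ± 0.21.

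Within single animals the pattern was uneven. Of the 32 members, 32 were higher in the formalin library in icKO 4 and in icKO 5, with median log2 ratios of 0.70 and 1.02. In Control 2, Control 3 and Control 5, 7, 2 and 0 were higher, with medians of -0.14, -0.67 and -0.55. Among the animals whose records differ, 18 were higher in icKO 2 and 9 in icKO 3 (both named control), with medians of 0.04 and -0.36, against 5 in Control 1 and 29 in Control 4 (both named icKO), with medians of -0.18 and 0.37. The medians of icKO 3 and Control 1 lay within the range of the 3 controls with matching records. In icKO 4 the median was 0.37 in the resident and 0.99 in the general class, whereas in icKO 5 it was 0.95 and 1.12. In icKO 3 none of the 14 general members was higher with formalin, beside 9 of the 18 resident ones. Among animals with both libraries, 3 of the 4 named icKO had 29 or more members higher with formalin and Control 1 had 5, beside 0 to 18 in the 5 named control. The median log2 ratio over all genes tested lay between -0.015 and 0.035 in these animals. Members of an animal share its 2 libraries, so they are not separate observations.

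**Figure D5:**
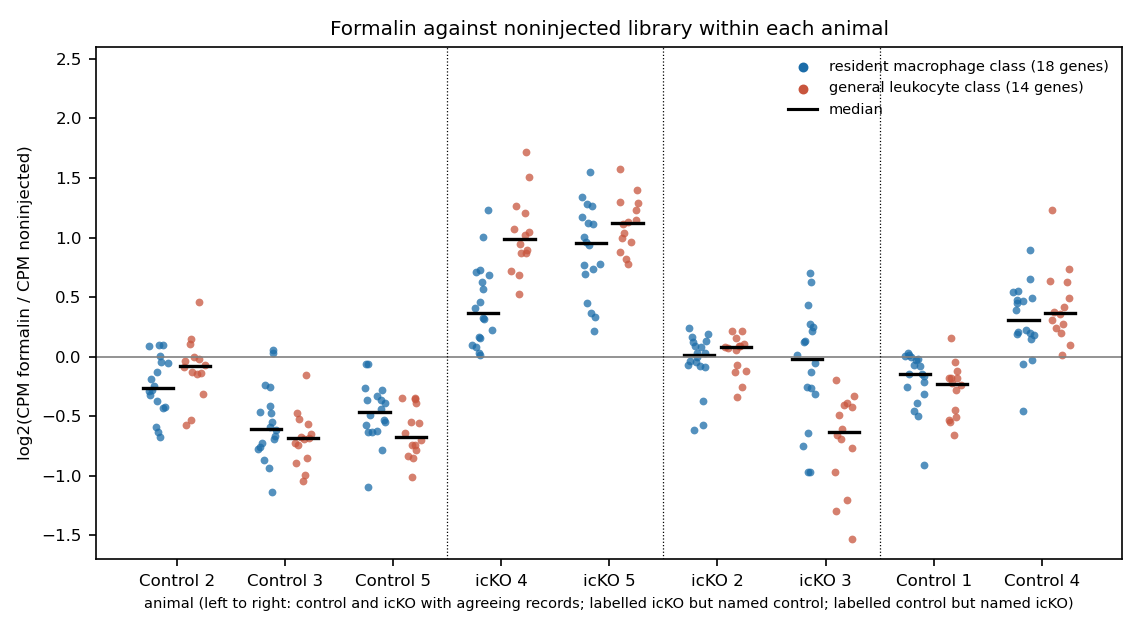
Log2 ratio of the formalin over the noninjected library (vertical) for 18 resident and 14 general genes (points, with the class median as a bar) in each of the 9 animals with both libraries. All points lie above 0 in icKO 4 and icKO 5 and all lie below 0 in Control 5.

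Pooled over both genotypes by title, formalin gave 0 called members (0% of all genes; edgeR), and 0 had an unadjusted p under 0.05 and 0 were called by DESeq2. Of the log2 folds 27 were above 0, with a median of 0.13, and without the icKO 4 and icKO 5 formalin libraries 7 were, with a median of -0.11. The smallest p belonged to Itgam with a log2 fold of 0.48 ± 0.32 (edgeR adjusted p = 0.93). Its value without these 2 libraries was -0.18.

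Genotype by title, where each group held animals with low and with high Prdm12, was compared over all 10 animals with the used libraries of an animal added up. The total of icKO 1 was its noninjected library alone, in this and every other comparison of totals. The comparison by title gave 0 called members (0% of all genes, edgeR). By DESeq2 there were also 0. By edgeR 1769 of all 18787 genes tested had an unadjusted p under 0.05, 3 of them members. These were Mpeg1 with a log2 fold of 0.48 ± 0.19 (edgeR adjusted p = 0.50), Irf8 with 0.54 ± 0.22 (0.50) and Lyve1 with 0.34 ± 0.14 (0.51). In the 6 animals with matching records, 0 members passed (0.895% of all genes called in either direction). By edgeR 3596 of all 18440 genes tested had an unadjusted p under 0.05, 2 of them members. DESeq2 called 2 members (5.6% of all genes by DESeq2). These were Irf8, with an edgeR log2 fold of 0.94 ± 0.26 (adjusted p = 0.14), and Ly86, with -0.46 ± 0.08 (adjusted p = 0.060). Without icKO 5 formalin Ly86 passed, at -0.51 (edgeR adjusted p = 0.027; 7.87% of all genes called in either direction), and by deposited name it passed at -0.50 (adjusted p = 0.010; 0.484% of all genes called lower). Leaving out Control 2 or icKO 1 let 9 members pass (3.39% and 3.31% of all genes). Control 2 and icKO 1 are the females of the 6 animals, and either fit leaves 1 female, which the sex term absorbs. In both fits the genotype comparison thus rests on the same males, so they are not separate results.

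Sex differed between animals too. In animal totals 31 of 32 members had a log2 fold of males over females above 0, with a median of 0.48 against -0.01 over all genes, but 0 passed by edgeR (0.0586% of all genes called in either direction). At an unadjusted p under 0.05 there were 12 members, beside 2286 of all 18787 genes tested. DESeq2 called 3 members higher in males, Ccl9, Ly86 and Lyz2 (0.575% of all genes by DESeq2). Lyz2 was at a mean of 319 CPM ± 99.6 (SD, n = 5) in males and 184 CPM ± 27.8 (SD, n = 5) in females, a log2 fold of 0.80 ± 0.19 (edgeR adjusted p = 0.31). Ccl9 had a log2 fold of 0.87 ± 0.19 (adjusted p = 0.23) and Ly86 of 0.67 ± 0.18 (adjusted p = 0.33), whereas P2ry12 had -0.04 ± 0.13. The icKO 4 and icKO 5 animals are males, and the median without the icKO 5 formalin library was 0.32.

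The genes around these members were read in 8 lists of macrophage biology, also chosen with earlier results of these data known. In the formalin comparison of icKO with control (6.33% of all genes called higher), none of their members was called lower. Of the CSF1 and TGF-beta survival genes 3 of 7 were higher, among them the receptor gene Tgfbr1 with a log2 fold of 0.85 ± 0.13 and the ligand gene Tgfb1 with 1.21 ± 0.23. Of the macrophage transcription factors 5 of 9 were higher, led by Ikzf1 with 2.13 ± 0.34, a lymphoid and myeloid regulator, and Mef2c with 0.60 ± 0.13. Of the chemokine genes 3 of 11 were higher, with the monocyte receptor gene Ccr2 at 1.94 ± 0.35 and the eotaxin gene Ccl24 at 1.87 ± 0.48.

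Phagocytosis genes gave 3 of 11, with the inhibitory Fc receptor gene Fcgr2b at a log2 fold of 0.84 ± 0.17 and the CD47 receptor gene Sirpa at 0.54 ± 0.12. MHC class II genes gave 2 of 7, H2-DMa at 0.60 ± 0.17 and Cd74 at 1.00 ± 0.27. In each of the other 3 lists 1 gene was higher: the complement receptor gene C5ar1 at 1.63 ± 0.39 (of 6), Siglech, a lectin gene of microglia and plasmacytoid dendritic cells, at 1.40 ± 0.30 (of 6), and the cyclooxygenase-2 gene Ptgs2 at 2.34 ± 0.60 (of 9). The median log2 folds of the 8 lists ran from 0.72 to 1.37. Beside them, 4 of 6 monocyte, 6 of 6 erythroid, 5 of 5 proliferation and 4 of 5 B cell markers were called higher in the same comparison, and 1 of 9 neutrophil markers.

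In the formalin comparison inside icKO, 5 genes of these lists were called higher: Fcgr2b at 0.94 ± 0.17, Siglech at 1.46 ± 0.29, Ikzf1 at 1.48 ± 0.32, Ccr2 at 1.66 ± 0.34 and the interleukin gene Il1b at 1.72 ± 0.41, as log2 folds. In the interaction 1 passed, Fcgr2b at 1.42 ± 0.23. Without injection 1 passed between genotypes, the gene of the "do not eat me" protein Cd47, higher in icKO with a log2 fold of 0.43 ± 0.10 (edgeR adjusted p = 0.035), while 3.83% of all genes were called higher there.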

How the data were processed

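PolyA RNA of 20 libraries was counted per Ensembl gene. The authors deposited raw counts, made with bcl2fastq 2.20.0.422, STAR 2.7.8a and featureCounts 2.0.1 on GRCm39 per the submitters' processing notes, from a kit that does not mark strand per the labels' protocols. How multiply matching reads and strand were handled is not stated in those notes, so overlapping genes and close copies (Fcgr3 and its relatives, Lyz2) are uncertain. Names came from a table that matched 52083 of 55416 IDs (94%).

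Here, counts were tested with edgeR 4.0.16 in R 4.3.3 (robust quasi-likelihood F test, TMM, filterByExpr, sex as covariate, Benjamini-Hochberg over all genes tested, threshold 0.05). SE was derived from fold and F. CPM is TMM-scaled, and RPKM used GENCODE M21 exon lengths (GRCm38). The 4 groups shared one dispersion, and genotype over all animals used summed libraries, for icKO 1 the noninjected library alone. The labels number separate animals, and p-values of summed libraries measure the spread between them. Main tests of single libraries had no term for the animal, so their p-values treat the 2 libraries of an animal as independent. Libraries with 1000000 counts or fewer were left out, and 0 pairs of libraries were identical. The scripts were tested on simulated data.

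Groups follow the titles. Both libraries of an animal share its number in the title and the deposited name, so they are paired by animal. Deviations of paired libraries from the means of their title groups had correlations of 0.25 to 0.51 in 8 of 9 pairs and of -0.11 in icKO 3. Title groups mix sexes and low and high Prdm12, which paired libraries share, so these values alone cannot check the pairing.

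Members and lists were chosen with earlier results of these data known. Every member is counted. Named with fold and p are called members, at most 8 a direction by smallest p, or otherwise the 3 of smallest p, and up to 2 called genes per list. The 4 printed windows were chosen after their motifs were seen, and Lyz2, Ptprc, Itgam, Fcer1g and Laptm5 were named beyond the 8. Alternatives were RLE scaling, DESeq2 1.42.0, no filter, each animal left out in turn, no sex term, a block for the animal (as a random effect in limma 3.58.1 voom for genotype), only the groups compared, the deposited word as genotype, and fits without the icKO 5 formalin library. Fits without the icKO 4 formalin library, or without both, were added after seeing the data.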

Additional observations from a re-analysis of the deposited data

Results flagged for a closer look

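Group values of 8 genes and 2 class sums were tested for a single library far from the rest of its group, 40 values in all. Of these 5 stood out, where chance alone gives about 1 in 20. The class sums contain the tested genes, so the values overlap. Groups here followed the titles, so each mixed animals with low and with high Prdm12. Cx3cr1 was at 24.9 CPM in icKO 5 formalin, against 9.79 to 11.3 CPM in the other formalin libraries labelled icKO. Among these, icKO 2 and icKO 3 carry the word control in the deposited name, and icKO 4 was at 10.9 CPM. Control 3 noninjected stood apart from the other noninjected controls in C1qa, with 76.7 CPM against 32.0 to 41.2 CPM, and in Lyz2, with 342 CPM against 198 to 237 CPM. It also stood apart in the summed general leukocyte members, with 608 CPM against 405 to 456 CPM. Lyz2 made up 342 of these 608 CPM, and without Lyz2 the sum was 266 CPM against 193 to 228 CPM. Lyve1 was at 8.19 CPM in Control 5 noninjected, against 4.81 to 5.06 CPM.

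The genotype difference with formalin differed from that without by edgeR's interaction test in 6 members (0.232% of all genes called higher). The log2 values were 2.18 in Cd53, 2.15 in Ccl9, 1.76 in Fcgr3, 1.72 in Mpeg1, 1.65 in Tyrobp and 1.22 in Plek. Grouped by deposited name 0 members passed (0% of all genes), and leaving out each animal in turn gave 0 to 14. The neutrophil, erythroid, monocyte and proliferation markers were highest in the same 2 formalin icKO libraries, and their part in these differences was not tested.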

How the results depend on the processing

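Counts of called members are given here by comparison. For icKO over control with formalin, main count 12, the count was 28 without the filter, 19 without icKO 4 formalin, 0 by deposited name without the icKO 4 and icKO 5 formalin libraries, and 8 to 19 leaving out each animal. For the noninjected genotype comparison (1) it was 8 without the filter, 0 without the sex term, and 0 to 1 leaving out each animal. For the interaction (6) it was 17 by DESeq2, 30 without the filter, 20 without icKO 4 formalin, 0 by deposited name with or without those 2 libraries, and 0 to 14 leaving out each animal. For formalin in icKO (9) it was 15 by DESeq2, 29 without the filter, 0 with only the groups compared, 18 without icKO 4 and 2 without icKO 5 formalin, 0 by deposited name with or without both, and 0 to 15 leaving out each animal. From 0, the count was 10 without the filter for formalin in controls, 1 for formalin pooled, 8 for genotype by title and 21 for sex, where DESeq2 gave 3, and each stayed at 0 leaving out any animal. For totals of animals with matching records (0) it was 2 by DESeq2, 4 without the filter, 1 by deposited name, 1 without icKO 5 formalin, and 0 to 9 leaving out each animal. Over all genes, in the direction of the members called, the share called without the filter was 6.32% for icKO over control with formalin, 1.65% noninjected, 4.57% for the interaction, 5.04% for formalin in icKO, 0.359% for formalin in controls, 0.32% pooled, 1.67% by title, 2.32% for sex and 5.16% (both directions) for totals of matching records. By DESeq2 it was 3.53% for the interaction, 5% for formalin in icKO, 0.575% for sex and 5.6% (both directions) for totals of matching records. Without icKO 4 formalin it was 9.91%, 9.16% and 10.6% for icKO over control with formalin, the interaction and formalin in icKO.

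With the replicate block that pairs libraries by animal, the interaction count was 23, formalin in icKO 20, icKO over control with formalin 13 and noninjected 1 (4.45%, 4.67%, 5.61% and 0.623% of all genes), and the block changed no other count past 1.5 times. Some uncalled log2 folds reversed. For formalin pooled these were C1qb (0.0056 without the sex term, 0.059 without icKO 4 formalin, -0.12 to 0.048 leaving out each animal), Lyve1 (-0.19 to 0.12 leaving out each animal), and Itgam (-0.18) and Lyz2 (-0.11) without both formalin icKO libraries. Leaving out each animal gave C1qc -0.48 to 0.093 and Trem2 -0.45 to 0.25 in totals of matching records, Ly86 -0.19 to 0.015 and Trem2 -0.18 to 0.20 in totals by title, and P2ry12 -0.17 to 0.059 for sex. Of all values of single named genes, 302 kept direction and side of the threshold, 56 fell short of it, 19 passed it and 4 reversed under alternatives other than leaving out an animal, and 255, 58, 8 and 21 did so when an animal was left out. RLE scaling changed no count. The cause of these shifts was not tested. At 11763893 counts or more, Folr2 could not be tested, and 2 usable formalin icKO libraries limit the precision.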
